A study of Homo sapiens with 6 samples.

Results

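The genes described here are 39 genes of mitosis and the spindle checkpoint, taken from a table of 35554 genes by their symbols. They encode mitotic cyclins and kinases, kinesins, kinetochore and checkpoint proteins and the proteins of mitotic exit, and they were picked by function rather than by a cut on their values, though with earlier results of these data known. All 39 were found, and all passed the filter on low counts that left 19711 genes for testing. RNA sequencing compared LNCaP (parental, n = 3), an established androgen-dependent line that was grown from a prostate cancer metastasis, with a derivative resistant to enzalutamide, an inhibitor of androgen signalling (LNCaP-enzaR, n = 3). To obtain LNCaP-enzaR, the study kept LNCaP in enzalutamide without a break and later reduced the dose. The labels give neither the presence of drug at harvest nor a second resistant line, so each group is 1 line with 1 culture history. Per the labels, flasks of both lines were harvested below confluence. The p-values given here measure the spread between 3 flasks of a line.

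Dividing cells make most of these proteins anew in each cycle. Cyclin B with CDK1 drives entry into mitosis, the Aurora and Polo-like kinases build the spindle, and the kinetochore, a protein structure on the centromere, holds each chromosome to spindle microtubules. The spindle checkpoint delays chromosome separation until every kinetochore is attached, after which CDC20 activates the anaphase-promoting complex (APC/C), a ubiquitin ligase that marks securin and the cyclins for destruction. Transcripts of many such genes are held low in resting cells by the DREAM complex and are raised late in the cycle by B-MYB and FOXM1 together with the MuvB core, and their joint level is widely read as a measure of proliferation in tumours, prostate cancer included.

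Libraries held 77759122 to 98616465 counts. Mitochondrially encoded transcripts took 6.72% to 7.06% of the counts in parental and 14.7% to 15.5% in LNCaP-enzaR libraries. The Pearson correlation of log2 CPM between libraries of a line across genes was 0.997 to 0.998. A chi-square on the counts of such library pairs gave 5.56 to 35.6 per degree of freedom. Libraries of a line thus differed by more than counting error, and by unequal amounts between pairs. The luminal marker list, 8 genes in all, was present in every library at a summed 3838 to 3924 CPM in parental and 2509 to 2819 CPM in LNCaP-enzaR cells, but its genes moved in both directions, with 4 called lower and 1 higher. Leukocyte markers summed to at most 0.174 CPM, basal markers to at most 1.71 CPM, endothelial markers to at most 6.10 CPM and fibroblast markers to at most 17.2 CPM in any library. CPM are counts per 1000000 after scaling by TMM, which sets libraries on a common scale.

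Mitotic transcripts were lower in LNCaP-enzaR throughout. A gene was called when its edgeR quasi-likelihood p, adjusted by Benjamini-Hochberg over all tested genes, was at most 0.05 and its fold change at least 1.5, which are the limits of the study's methods. Of the 39 genes, 36 fell and 0 rose by this rule (edgeR; at an unadjusted p under 0.05, 38 were lower and 0 higher, and DESeq2 also called 36 lower and 0 higher). With no minimum fold, 38 passed as lower, against 32.8% of all tested genes. Over all tested genes, 42.7% were called in either direction and 19.5% lower, with 20.5% lower among genes at least as abundant as the least abundant of the 39. All 39 had every LNCaP-enzaR library below every parental library, against 35% of all tested genes. Their median log2 fold change, LNCaP-enzaR over parental, was −1.98, or 25.4% of the parental level, while the median over all tested genes was 0.01. Only 4.55% of tested genes had a log2 fold change at or under that median. The 36 called genes were also past a fold of 2, where 11.8% of all genes were called lower, and 18 of them were past a fold of 4, where the share of all genes was 4.46%.

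The genes as a group took 0.425% to 0.443% of all counts in parental libraries (0.432% ± 0.0099, SD, n = 3). In LNCaP-enzaR they took 0.122%, 0.130% and 0.141% (0.131% ± 0.0092), so that the groups were far apart relative to their spread. With the mitochondrially encoded genes left out of the fit, the median log2 fold change of the 39 genes was −1.97. In bulk RNA, fewer dividing cells and less of each transcript per dividing cell cannot be told apart.

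**Figure D1:**
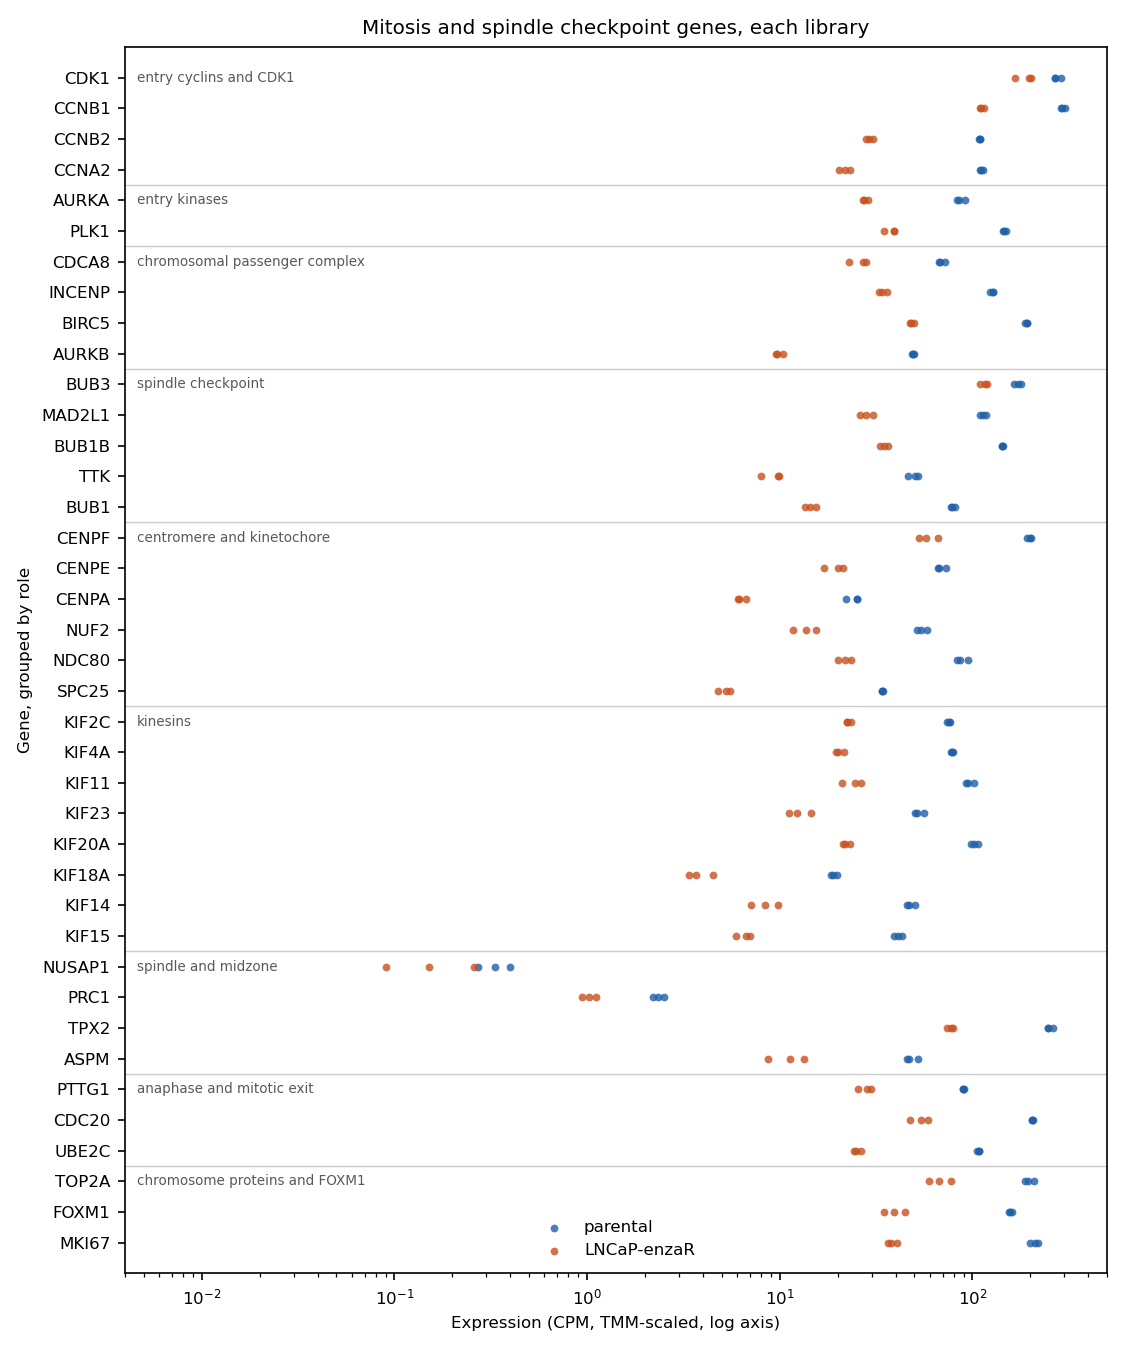
Expression of each of the 39 genes in each library, in CPM on a log axis, with 1 point per library (parental blue, LNCaP-enzaR orange) and genes grouped by role. The LNCaP-enzaR points lie left of the parental points in all 39 rows, and NUSAP1 and PRC1 sit far below the other genes.

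The start regions of the genes show what they share in sequence. Promoter windows of RefSeq, from 250 bases before to 50 bases after the start, were found for 32 of the 39 genes. The genes without one were AURKA, BIRC5, BUB3, TTK, TPX2, UBE2C and FOXM1. The 6 genes printed first, each of another role, had the smallest p-values of their roles among genes with a window, and CDK1 is added for its small change, after its values were seen. Each line runs 5′ to 3′ from 170 bases before to 30 bases after the start (build GRCh38.p14). Capitals mark matches, on either strand, to CHR-type letters (TTTGAA or TTCGAA; the CHR is the element bound by the MuvB core), to the CCAAT box (bound by NF-Y) and to E2F-type letters (TTCCCGC or TTGGCGC or TTCGCGC).
MKI67, chr10:128126394-128126593, minus strand: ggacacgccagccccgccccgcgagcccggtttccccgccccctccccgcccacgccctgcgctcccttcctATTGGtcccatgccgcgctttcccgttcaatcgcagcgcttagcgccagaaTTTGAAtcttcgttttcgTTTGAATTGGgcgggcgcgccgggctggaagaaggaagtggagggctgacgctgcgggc
CCNA2, chr4:121823854-121824053, minus strand: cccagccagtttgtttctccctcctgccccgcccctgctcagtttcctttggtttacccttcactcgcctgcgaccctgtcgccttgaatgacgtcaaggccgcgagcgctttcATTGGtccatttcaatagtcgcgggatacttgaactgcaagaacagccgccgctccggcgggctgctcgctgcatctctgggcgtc
BUB1, chr2:110678034-110678233, minus strand: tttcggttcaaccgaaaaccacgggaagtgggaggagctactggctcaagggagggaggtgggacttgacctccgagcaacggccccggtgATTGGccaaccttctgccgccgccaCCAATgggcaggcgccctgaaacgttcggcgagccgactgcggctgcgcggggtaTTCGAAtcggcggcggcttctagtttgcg
KIF20A, chr5:138178942-138179141, plus strand: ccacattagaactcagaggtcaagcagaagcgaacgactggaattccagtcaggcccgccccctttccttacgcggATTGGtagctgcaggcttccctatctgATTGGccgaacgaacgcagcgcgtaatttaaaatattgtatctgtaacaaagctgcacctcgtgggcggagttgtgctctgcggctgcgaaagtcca
SPC25, chr2:168890401-168890600, minus strand: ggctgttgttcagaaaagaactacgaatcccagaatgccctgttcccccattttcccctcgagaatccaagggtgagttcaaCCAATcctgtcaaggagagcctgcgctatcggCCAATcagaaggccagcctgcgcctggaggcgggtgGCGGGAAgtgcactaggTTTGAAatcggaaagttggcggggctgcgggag
AURKB, chr17:8210220-8210419, minus strand: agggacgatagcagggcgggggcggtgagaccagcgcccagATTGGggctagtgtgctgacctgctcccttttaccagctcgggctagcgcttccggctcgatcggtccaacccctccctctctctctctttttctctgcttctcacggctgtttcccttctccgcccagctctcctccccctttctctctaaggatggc
CDK1, chr10:60778161-60778360, plus strand: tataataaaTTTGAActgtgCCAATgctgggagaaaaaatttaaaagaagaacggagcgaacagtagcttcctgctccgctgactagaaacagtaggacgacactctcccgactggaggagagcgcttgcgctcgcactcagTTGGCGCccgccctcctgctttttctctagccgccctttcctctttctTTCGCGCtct

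MKI67 has CCAAT matches 98 and 24 bases and CHR-type matches 47 and 29 bases before its start, of which the last of each overlap. In SPC25, CCAAT matches lie 88 and 56 bases before the start, an E2F-type match 20 bases and a CHR-type match 3 bases before it. BUB1 has CCAAT matches 79 and 54 bases before the start and a CHR-type match just after it. CCNA2, KIF20A and AURKB hold CCAAT matches only, which says nothing of elements with other letters or outside the window. CDK1 has a CHR-type match 161 bases and a CCAAT match 150 bases before the start, with E2F-type matches 28 bases before and 21 bases after it.

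A CHR-type match stood in 25 of the 32 windows (78.1%), against 16.7% of all 27305 genes with a window and 11.1% of the tested ones. CCAAT stood in 26 (81.2%, against 35.7% of all genes and 36.7% of the tested ones), and both together in 21 (65.6%, against 6.63% and 4.86%). E2F-type letters were in 8 windows (25%), against 11.1% of all genes, 17% of the tested ones and 22% of those called lower, a share near that background. Matches clustered near the start. CHR-type letters lay within the last 50 bases before it in 43.8% of the 32 windows (all genes, 2.75%), and CCAAT lay 50 to 100 bases before it in 62.5% (all genes, 13.4%).

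Lists of related genes also held CHR-type letters often, with 61.9% of windows for other spindle and cytokinesis genes, 57.1% for centrosome duplication, 55.6% for cohesin and condensin and 44% for other centromere and kinetochore genes. They stood in 30% of windows for mitotic entry control, 18.2% for the MuvB, DREAM and B-MYB list and 17.6% for the APC/C list. The DNA replication list had CHR-type letters in 2 of 30 windows and E2F-type letters in 23 of 30 (76.7%). The 25 mitotic genes with a CHR-type match had a median log2 fold change of −2.003 and the 7 without one −1.82. For CCAAT the order was the opposite (−1.95 with, −2.01 without), and for E2F-type letters the medians were −1.97 with and −1.98 without. These matches are descriptions of letters, and no binding was measured.

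**Figure D2:**
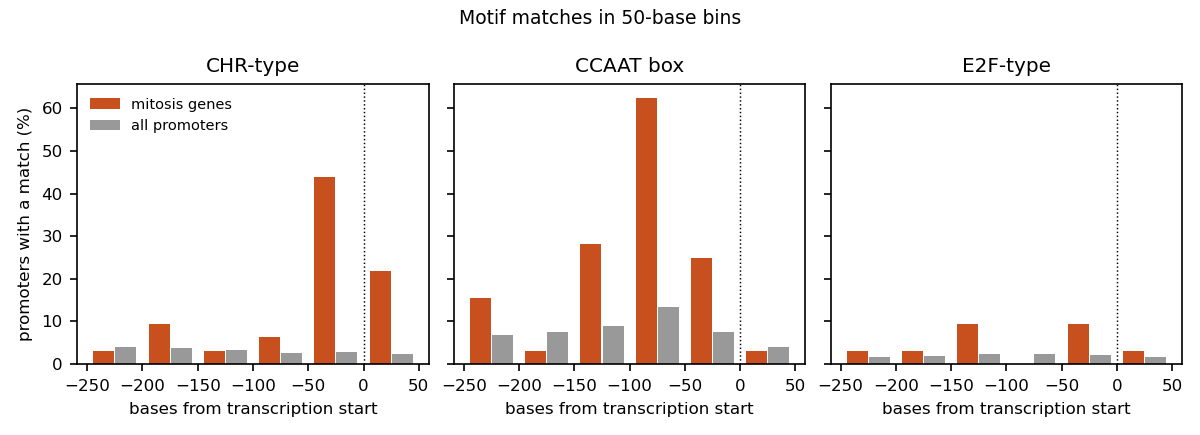
Share of promoter windows with a match in each 50-base bin, for 32 mitosis genes (orange) and all 27305 genes with a window (grey), against the distance from the transcription start in bases. CHR-type matches of the mitosis genes peak in the last 50 bases before the start (43.8%) and CCAAT matches 50 to 100 bases before it (62.5%).

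Both of the lowest-counted genes lie under other annotated genes. NUSAP1, which encodes a microtubule-bundling protein, and PRC1, which encodes the bundler of the anaphase midzone, share 86.8% and 61.9% of their exonic bases with exons of other genes in GENCODE v44, mainly of readthrough genes that run through them. How the authors' counting treated reads that fit several genes is not stated, and whether overlap lowered these counts was not tested. Of the genes that overlap NUSAP1, ENSG00000285920 has no row among the deposited counts. The study's methods name another GENCODE version than the v44 used here for overlaps. OIP5, which lies on the opposite strand to NUSAP1 and shares 92.5% of its exonic bases with NUSAP1 and other genes, was at 9.71 CPM per kilobase of exon in parental cells. The strand setting of the counting is not stated, so OIP5 and NUSAP1 may not be comparable. NUSAP1 held 25, 36 and 26 counts in the parental and 13, 23 and 9 in the LNCaP-enzaR libraries. Its parental level per kilobase of exon was 0.092 CPM, against 4.03 to 120.5 CPM per kilobase for the 37 genes with less than 50% overlap. The log2 fold change, −0.99 (SE 0.467), did not pass the test (edgeR adjusted p = 0.0752, 0.0275 to 0.245 over the alternatives), and without LNCaP-enzaR replicate 2 it was −1.46 and past the threshold. PRC1 was at 2.33, 2.20 and 2.50 CPM in parental and at 0.939, 1.02 and 1.11 CPM in LNCaP-enzaR libraries, and fell by 1.19 on the log2 scale (SE 0.168, adjusted p = 2.06e-05). The readthrough gene over PRC1 (ENSG00000284946.1) was at 1.72 ± 0.263 CPM in parental and 0.827 ± 0.035 CPM in LNCaP-enzaR cells. Without NUSAP1 and PRC1, the median over the other 37 genes was −1.995, with 35 called lower. Lesser overlaps were 15.9% of the exonic bases for FOXM1, 12.8% for PLK1, 10.2% for BUB1B, 9.24% for CCNA2 and 7.08% for CENPA.

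Of the cyclins and CDK1, which drive entry into mitosis, 3 of 4 fell and CDK1 did not pass the fold limit. CCNA2, which encodes cyclin A of S phase and early mitosis (ENSG00000145386.11, chromosome 4, 121816444 to 121823883, GRCh38), was at 109.7, 113 and 111 CPM in the parental libraries and at 20.3, 23.1 and 21.8 CPM in LNCaP-enzaR. This put its log2 fold change at −2.35 (SE 0.065, adjusted p = 8.52e-13). CCNB1, the main mitotic cyclin and the most abundant of the 39 genes per kilobase in parental cells (ENSG00000134057.15, chromosome 5, 69167135 to 69178245), went from 301, 291 and 287 CPM to 110.1, 111 and 114 CPM. Its fold change was the smaller of these (−1.39, SE 0.052, adjusted p = 1.59e-11). CCNB2, a second B-type cyclin, fell by 1.90 on the log2 scale, from 109 ± 0.67 to 29.2 ± 1.31 CPM (SD, n = 3 each).

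CDK1, the kinase that these cyclins activate (ENSG00000170312.16, chromosome 10, 60778331 to 60794852), was at 290, 268 and 267 CPM in parental and 166, 197 and 202 CPM in LNCaP-enzaR libraries. No library of 1 line reached into the range of the other. At a log2 fold change of −0.54 (SE 0.071), it differed by more than the replicate spread (adjusted p = 9.70e-06) but kept 68.6% of the parental level, short of the 1.5-fold limit, and it was −0.59 and past that limit without LNCaP-enzaR replicate 3. Among the 39 genes it had the smallest change. In LNCaP-enzaR it was also the most abundant of them per kilobase, at 48.2 CPM per kilobase against 46.0 for CCNB1.

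Both kinases of spindle assembly fell. AURKA, which encodes Aurora A at the spindle poles, was at 92.1, 85.1 and 83.3 CPM in parental and at 27.5, 28.6 and 26.9 CPM in LNCaP-enzaR libraries (log2 fold change −1.65, SE 0.063, adjusted p = 2.14e-11). PLK1, the Polo-like kinase of mitotic entry and kinetochore attachment, was at 145, 146 and 149 CPM against 39.4, 34.8 and 38.99 CPM (log2 fold change −1.960, SE 0.063, adjusted p = 3.53e-12).

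The 4 genes of the chromosomal passenger complex, which corrects faulty attachments and later directs cytokinesis, fell to different degrees. AURKB encodes its kinase, Aurora B, and INCENP, BIRC5 (survivin) and CDCA8 (borealin) encode the scaffold and the targeting subunits. AURKB (ENSG00000178999.13, chromosome 17, 8204733 to 8210600) was at 48.9, 48.9 and 49.9 CPM in parental and at 10.4, 9.69 and 9.59 CPM in LNCaP-enzaR libraries (log2 fold change −2.31, SE 0.068, adjusted p = 1.56e-12). INCENP was at 126 ± 2.53 against 34.3 ± 1.73 CPM (−1.88, SE 0.060). BIRC5 had a log2 fold change of −1.98 (SE 0.054). CDCA8 was at 72.3, 68.1 and 67.2 CPM against 28.2, 23.0 and 26.9 CPM and had the smallest change of the 4 (−1.41, SE 0.077, adjusted p = 8.86e-10).

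Of the 5 spindle checkpoint genes, 4 fell and BUB3 stood apart. BUB1, a kinase that recruits the checkpoint to kinetochores (ENSG00000169679.15, chromosome 2, 110637528 to 110678063), was at 81.5, 77.3 and 78.3 CPM in parental and at 13.6, 15.5 and 14.4 CPM in LNCaP-enzaR libraries. Its transcript was 18.3% of the parental level (log2 fold change −2.45, SE 0.069, adjusted p = 1.03e-12). TTK, the MPS1 kinase that starts the checkpoint signal, was at 52.0, 50.3 and 46.3 against 8.04, 9.85 and 9.97 CPM (−2.41, SE 0.089). BUB1B, which encodes BUBR1 of the mitotic checkpoint complex, went from 143 ± 0.214 to 34.9 ± 1.68 CPM (−2.04, SE 0.059). MAD2L1, which encodes MAD2, the inhibitor of CDC20, had nearly the same change (−2.01, SE 0.068).

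BUB3, a protein that brings BUB1 and BUBR1 to kinetochores (ENSG00000154473.18, chromosome 10, 123154402 to 123170467), was at 179, 172 and 164 CPM in parental and at 109.8, 119.8 and 117 CPM in LNCaP-enzaR libraries. The groups did not overlap, and LNCaP-enzaR kept 67.3% of the parental level (log2 fold change −0.57, SE 0.058, adjusted p = 6.71e-07), which was short of 1.5-fold. The gene passed that limit at −0.60 with library totals in place of TMM, at −0.60 without parental replicate 3 and at −0.60 without LNCaP-enzaR replicate 2.

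All 6 centromere and kinetochore genes fell. SPC25, a subunit of the NDC80 complex that grips the microtubule (ENSG00000152253.9, chromosome 2, 168834132 to 168913371), had the largest change of the 39 genes. It was at 33.8, 34.2 and 33.9 CPM in parental and at 4.78, 5.29 and 5.49 CPM in LNCaP-enzaR libraries, 15.3% of the parental level (log2 fold change −2.71, SE 0.079, adjusted p = 1.35e-12). Its partners NDC80 and NUF2 changed by −2.02 (SE 0.073) and −2.003 (SE 0.091). CENPA, the histone variant that marks the centromere, was at 25.2, 25.2 and 22.0 against 6.18, 6.09 and 6.65 CPM (−1.93, SE 0.085). CENPE, a kinesin motor of the kinetochore, and CENPF, a large protein of its outer layer, changed by −1.82 (SE 0.082) and −1.75 (SE 0.076).

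All 8 kinesin genes fell, with a median log2 fold change of −2.14. KIF15 and KIF11, motors that keep the spindle bipolar, changed by −2.65 (SE 0.082) and −2.01 (SE 0.080). KIF15 was at 43.2, 41.3 and 39.2 CPM in parental and at 5.96, 6.70 and 7.03 CPM in LNCaP-enzaR libraries. The motors of the midzone and of cytokinesis were KIF14 (−2.50, SE 0.1005), KIF20A (−2.22, SE 0.063), KIF23 (−2.06, SE 0.091) and KIF4A (−1.94, SE 0.063). KIF18A, which dampens chromosome movement at the metaphase plate, was the least abundant kinesin gene in CPM, at 19.8, 18.9 and 18.4 against 3.37, 4.53 and 3.66 CPM (−2.30, SE 0.106). KIF2C, which encodes the microtubule depolymerase MCAK, had the smallest change of the 8 (−1.73, SE 0.060).

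Among the spindle proteins, TPX2, the activator of Aurora A, was at 262, 248 and 247 CPM in parental and at 73.9, 77.5 and 79.2 CPM in LNCaP-enzaR libraries (−1.71, SE 0.056). ASPM, a spindle pole protein, was at 52.4, 45.8 and 46.8 against 8.65, 11.3 and 13.4 CPM. Its LNCaP-enzaR libraries were more spread than its parental ones (coefficient of variation 21.4% against 7.32%), and the log2 fold change was −2.12 (SE 0.122, adjusted p = 1.47e-09).

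The 3 genes of anaphase and mitotic exit fell together. CDC20, the mitotic activator of the APC/C, was at 203, 204 and 207 CPM in parental and at 59.0, 47.3 and 53.9 CPM in LNCaP-enzaR libraries (−1.94, SE 0.073, adjusted p = 1.74e-11). UBE2C, the ubiquitin-conjugating enzyme that works with it, was at 107.8, 108.8 and 106 against 24.8, 24.4 and 26.4 CPM (−2.09, SE 0.060). PTTG1, which encodes securin, the guard of chromosome cohesion, changed by −1.68 (SE 0.068).

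FOXM1, a transcription factor for late cell cycle genes, was at 157, 155 and 160.3 CPM in parental and at 39.3, 34.7 and 44.6 CPM in LNCaP-enzaR libraries (log2 fold change −1.995, SE 0.079, adjusted p = 2.99e-11). MKI67, which encodes the Ki-67 protein of the chromosome surface, had the smallest p-value of the 39 genes. It was at 211, 199 and 219 against 37.7, 36.4 and 40.6 CPM (−2.45, SE 0.064, adjusted p = 4.83e-13). TOP2A, which encodes the topoisomerase that untangles sister chromosomes (ENSG00000131747.15, chromosome 17, 40388525 to 40417896), was at 209.9, 194 and 188 against 59.3, 67.0 and 77.7 CPM and fell by 1.54 on the log2 scale (SE 0.085, adjusted p = 9.55e-10). The gene lies 658 kb from ERBB2, which went the other way, from 112 ± 5.58 to 315 ± 10.7 CPM.

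**Figure D3:**
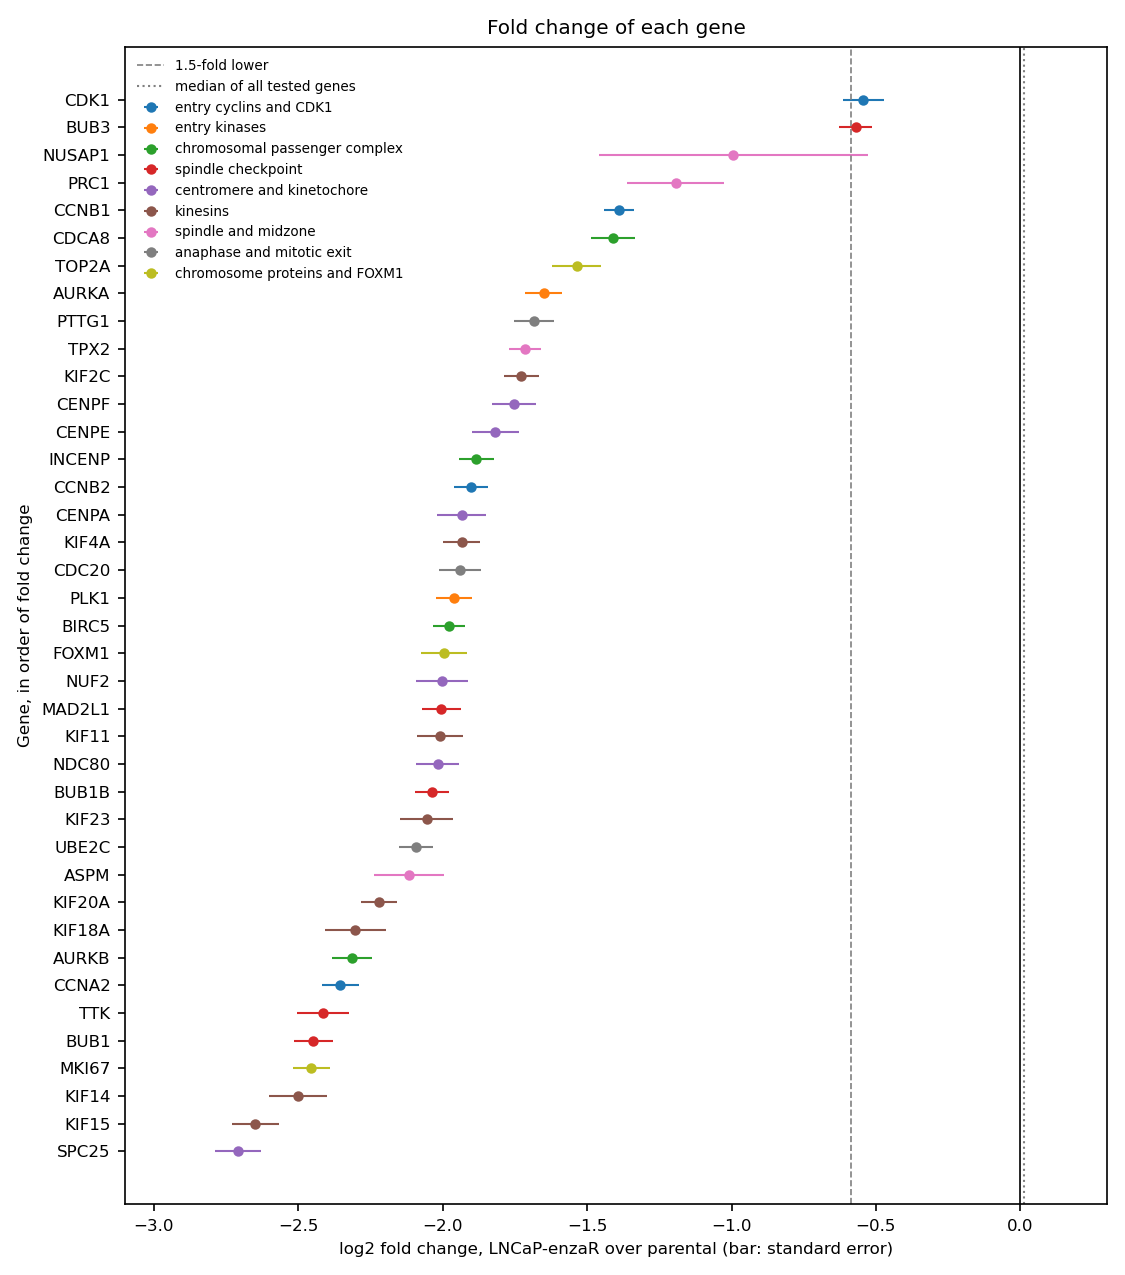
Log2 fold change of each of the 39 genes, LNCaP-enzaR over parental, in order, with bars for the standard error and colours for the role. Most points lie between −2.71 and −1.19, CDK1 and BUB3 lie just short of the dashed line at 1.5-fold lower, and NUSAP1 has the widest bar.

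The 39 fold changes had an SD of 0.488 on the log2 scale, against a median standard error of 0.071, and their quartiles ran from −2.17 to −1.72. Neighbours in the order mostly lay within 1 standard error of each other, for example from MAD2L1 to KIF23 (−2.01 to −2.06), so that the order is informative for the ends and not for the middle. Parental abundance per kilobase and fold change were weakly related across the 39 genes, which share libraries and are not independent (Spearman rho 0.279, Pearson r −0.078). Within LNCaP-enzaR, 27 of the 39 genes were highest in replicate 3 and 22 were lowest in replicate 1. In parental cells, 23 genes were highest in replicate 1. The coefficient of variation was larger in LNCaP-enzaR than in parental cells for 36 of the 39 genes, with medians of 7.22% and 3.61%. For these counts of genes by library and by spread, the shares over all tested genes were not computed. They thus have no background to be set against and are not shown to be particular to the 39 genes.

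Ratios between partner genes within a library do not depend on how libraries are scaled. For 10 pairs, the log2 ratio of counts was compared between the lines by a two-sided exact permutation test, which with 3 libraries against 3 cannot give a p under 0.10. In 8 pairs the lines did not overlap (exact p = 0.10, adjusted over the 10 pairs 0.125, for each of these 8). Of single tested genes, 35% had every LNCaP-enzaR library below and 35.6% above every parental library in CPM. The share over other gene pairs was not computed, so 8 of 10 has no background to be set against. The widest shifts were those against BUB3. BUB1 held 0.461 counts per BUB3 count in parental and 0.125 in LNCaP-enzaR cells, a log2 ratio that went from −1.12 ± 0.047 to −2.996 ± 0.039 (SD, n = 3 each). BUB1B went from −0.26 ± 0.062 to −1.73 ± 0.055 relative to BUB3.

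Relative to its kinase, the cyclin B1 transcript was lower too. The log2 ratio of CCNB1 to CDK1 was 0.05, 0.12 and 0.10 in parental and −0.60, −0.83 and −0.82 in LNCaP-enzaR libraries, a difference of −0.84 (SE 0.079). AURKB was lower relative to AURKA by 0.67 on the log2 scale (difference −0.67, SE 0.070). Within the passenger complex, the ratio of CDCA8 to AURKB was higher by 0.90 (SE 0.084), that of INCENP by 0.43 (SE 0.025) and that of BIRC5 by 0.34 (SE 0.057). Within the NDC80 complex, SPC25 was lower relative to NDC80 (difference −0.69, SE 0.056).

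In the other 2 pairs the lines overlapped. The ratio of NUF2 to NDC80 differed by 0.01 (SE 0.054, exact permutation p = 0.90), and that of CDC20 to MAD2L1, activator and inhibitor, by 0.06 (SE 0.136, exact permutation p = 0.90). Leaving out 1 library moved these differences over −0.034 to 0.057 and −0.066 to 0.15, with the negative value without LNCaP-enzaR replicate 3 for the first and without LNCaP-enzaR replicate 1 for the second.

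**Figure D4:**
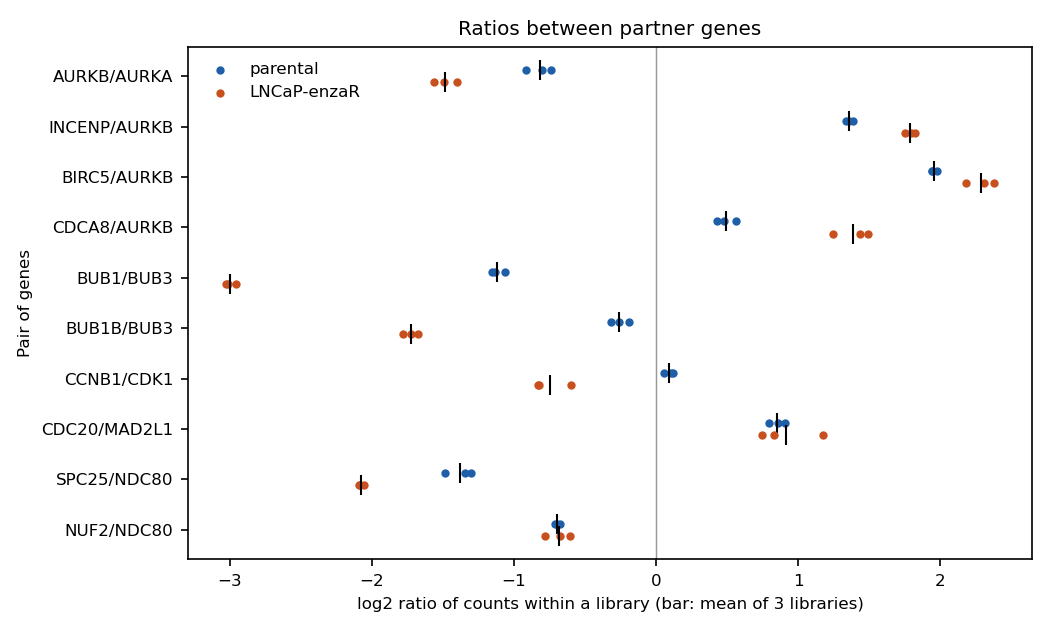
Log2 ratio of the counts of 2 partner genes within each library (parental blue, LNCaP-enzaR orange, black bars at the means of 3 libraries). The ratios of BUB1 and BUB1B to BUB3 moved most, and those of NUF2 to NDC80 and of CDC20 to MAD2L1 overlap between the lines.

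Other genes of the pathway, in 7 lists of 125 genes that exclude the 39, were lower as well but less evenly. All 125 were tested, 96 fell and 0 rose (edgeR; at an unadjusted p under 0.05, 116 were lower and 4 higher), with a median log2 fold change of −1.38. Of all tested genes, 19.5% were called lower and 23.3% higher. The share called lower was 21 of 22 for other spindle and cytokinesis genes (median −1.72), 18 of 20 for cohesin and condensin (−1.62), 12 of 14 for mitotic entry control (−1.62), 27 of 32 for other centromere and kinetochore genes (−1.41) and 7 of 8 for centrosome duplication (−1.35). At the low end of these lists were NCAPH, a condensin subunit (−2.69, SE 0.070), HJURP, the loading factor of CENPA (−2.47, SE 0.069), CEP55 of the midbody (−2.26, SE 0.072), MELK, a mitotic kinase (−2.17, SE 0.075), and CENPJ of the centriole (−2.12, SE 0.122). At the high end were STAG2 of cohesin (−0.06, SE 0.064), ENSA, a phosphatase inhibitor (0.06, SE 0.052), PCNT of the centrosome (−0.43, SE 0.065) and NUMA1 of the spindle poles (−0.50, SE 0.066), none of them past the threshold. MAD1L1, also at the high end (0.40, SE 0.706), was near the floor at 0.102 ± 0.097 CPM in parental cells, and 43.2% of its exonic bases lie in exons of other genes.

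In the APC/C list 5 of 17 genes were called lower, against 19.5% of all tested genes, with a median of −0.37. Of the other 12, 10 passed the adjusted p and missed the fold limit. The difference of this list from the others was not tested. FBXO5, which encodes the APC/C inhibitor EMI1, fell from 35.6 ± 2.96 to 7.97 ± 1.16 CPM (−2.16, SE 0.103, adjusted p = 2.09e-10). UBE2S, the enzyme that extends ubiquitin chains after UBE2C, was called lower with it, as were the subunit genes ANAPC1, ANAPC15 and CDC23. The subunit CDC16 had the highest value (0.20, SE 0.065, adjusted p = 0.0148), short of the fold limit. Past the fold limit, CDC20, UBE2C and FBXO5 were thus called and most subunits of the ligase were not.

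Among the regulators, 6 of 12 genes of the MuvB, DREAM and B-MYB list were called lower and 6 did not pass (median −0.62; 0 called higher by edgeR and by DESeq2, with 2 higher at an unadjusted p under 0.05). Over all tested genes, 19.5% were called lower and 23.3% higher. MYBL2, which encodes B-MYB, was at 227 ± 9.06 CPM in parental and 37.6 ± 3.68 CPM in LNCaP-enzaR cells and fell by 2.59 on the log2 scale (SE 0.073, adjusted p = 1.09e-12). LIN37, a MuvB subunit, was at the other end (0.52, SE 0.173, adjusted p = 0.0160), at 1.81 ± 0.287 and 2.60 ± 0.425 CPM, with 54.0% of its exonic bases shared with other genes. Leaving out parental replicate 2 or LNCaP-enzaR replicate 2 put 1 gene of this list past the threshold as higher.

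All 34 DNA replication genes were called lower (median −1.79), against 19.5% of all tested genes. They ran from UHRF1 (−2.55, SE 0.066) to RFC2 (−1.03, SE 0.059).

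**Figure D5:**
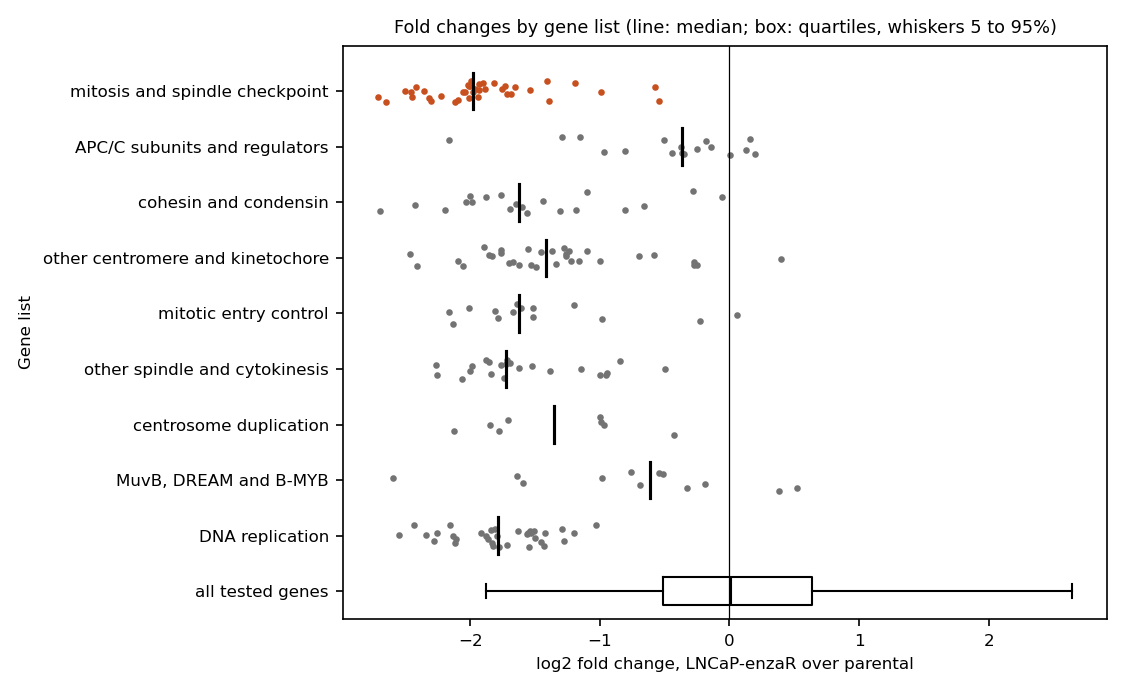
Log2 fold changes, LNCaP-enzaR over parental, of the 39 genes (orange), of 8 other lists (grey; black lines are medians) and of all tested genes (box from the lower to the upper quartile, whiskers from 5% to 95%). The mitosis genes (median −1.98) and the DNA replication genes (−1.79) lie well below 0, while the APC/C (−0.37) and MuvB (−0.62) lists have higher medians. Genes above 0 number 4 in the APC/C list and 2 in the MuvB list. The other centromere and kinetochore list and the mitotic entry control list hold 1 each.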

How the data were processed

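Polyadenylated RNA of 3 parental and 3 LNCaP-enzaR flasks was sequenced as paired ends. The authors trimmed reads with Cutadapt, aligned them to GRCh38.p13 with STAR and GENCODE, and deposited raw counts per gene from featureCounts, not normalized. The strand setting and the treatment of reads that fit several genes are not stated. Group and replicate number came from the sample titles.

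Counts were analysed in R 4.3.3 with edgeR 4.0.16 (filterByExpr, TMM, robust quasi-likelihood F-test, no covariates) on the whole table. The 19711 tested genes hold 99.96% of the counts. Calls needed an adjusted p of at most 0.05 (Benjamini-Hochberg over all tested genes) and a fold of at least 1.5. The SE of a log2 fold change is its absolute value divided by the square root of the F statistic. The SE of a difference in pair ratios comes from the variances of the libraries within each line. The study's methods name DESeq2, run here as an alternative (version 1.42.0). Other alternatives were RLE, library totals, upper-quartile scaling, a filter that asked for 10 or more counts in every library, no filter, no mitochondrial genes, other fold limits, the replicate number as a block, and leaving out each library. The edgeR test was first run on simulated data, in which far fewer genes changed than were called here. Exon lengths and overlaps came from GENCODE v44. Where RefSeq lists several starts, the most upstream window was used.

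The members, lists and pairs were chosen with earlier results of these data known. All 39 members are named, and of each other list the genes with the lowest and the highest fold change. ERBB2, OIP5, UBE2S, ANAPC1, ANAPC15 and CDC23 were added after their values were seen. Of the marker genes, COL1A2 was not analysed here. The counts per library give a 3-count level of 0.0302 to 0.0382 CPM, which covers counting error only.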

Additional observations from a re-analysis of the deposited data

How the results depend on the processing

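Of the 39 mitosis genes, 36 to 38 were called lower and 0 higher under every alternative run, and 36 of them had the same call in each of the 14 refits (NUSAP1 was not tested where 10 counts in every library were required). CDK1, BUB3 and NUSAP1 changed calls in 1, 3 and 1 of these. CDK1 ranged from −0.59 without LNCaP-enzaR replicate 3 to −0.44 with upper-quartile scaling, and BUB3 from −0.60 to −0.47. Both lie close to the fold limit. The median of the 39 genes was −1.88 with upper-quartile scaling, which shifted all fold changes by a median of 0.10 and took the proportion of calls that were higher from 54.5% to 60.9%. Leaving out single libraries gave −1.997 to −1.91. With no minimum fold and with a fold of at least 2, the calls over all genes were 13074 and 5561, those of lower APC/C genes 13 and 3, and those of lower MuvB, DREAM and B-MYB genes 10 and 3. With no minimum fold, 2 genes of each of these lists were higher. Upper-quartile scaling put 1 MuvB list gene past the threshold as higher, and the fits without 1 library 0 to 1. Among the pairs, the 2 in which the lines overlapped, CDC20 to MAD2L1 (−0.066 to 0.15) and NUF2 to NDC80 (−0.034 to 0.057), changed sign when 1 library was left out.

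Replicate numbers were not used as pairs in the main fit. Deviations of same-numbered libraries from their line means correlated at −0.211, 0.0085 and −0.116 across genes. These values do not settle whether flasks were handled in pairs. With the replicate block, 36 of the 39 genes and 8212 genes in all were called. Counts of NUSAP1, at most 36 per library, limit any statement on it.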

Other observations

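Copies of the mitosis genes elsewhere in the genome took few reads. CDC20P1, a processed copy of CDC20, held 43 to 179 counts per library, at most 1.18% of the CDC20 count of the same library. KIF4B, an intronless relative of KIF4A, held 2 to 27 counts, at most 1.35% of those of KIF4A. UBE2CP2 reached 0.934% of UBE2C, and the listed copies of AURKA, MAD2L1, PTTG1 and MKI67 stayed below these shares. Reads that fit a gene and its copy equally well may have been left out of both, which was not tested.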
